A study of Mus musculus with 2 samples.

Results

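The miR-200 family is a set of 5 miRNA genes, Mir200a, Mir200b, Mir429, Mir200c and Mir141, and its reads were examined in fetal mouse liver. The members were chosen by name, as the genes of the 2 genomic clusters that encode the family, and all 5 were found among the 1973 miRNA genes counted. The data are small RNA reads from 2 libraries of liver at embryonic day 15.5, from healthy embryos of the strain B6NCrl, with no transgene, deletion or treatment named in the labels. Replicate 1 pooled the livers of 78 embryos of both sexes and replicate 2 those of 62, so each value is an average over a pool and over every cell type of the organ. There was 1 group, so the design asks what the family's level and make-up are in this tissue and how far separate pools differ.

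miRNAs of this family are known for maintaining the epithelial state. Their best known targets are the mRNAs of Zeb1 and Zeb2, repressors of E-cadherin and other epithelial genes, and the Zeb proteins in turn repress the miR-200 loci, so that each side holds the other down. In liver the family is known mainly from bile duct epithelium rather than from hepatocytes, and at this fetal stage the organ is also rich in blood-forming cells.

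A miRNA finds its targets mainly through its seed, bases 2 to 8 from the 5′ end, and the family falls into seed groups that cut across its clusters. The 3p strands, the arm for which the family is known, are shown 5′ to 3′ in the order of the members' levels, with the seed in capitals, because the seed defines what each member can repress (RefSeq, GRCm38.p6).
miR-429-3p: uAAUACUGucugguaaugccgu
miR-200b-3p: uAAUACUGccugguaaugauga
miR-200c-3p: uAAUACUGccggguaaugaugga
miR-200a-3p: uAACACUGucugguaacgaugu
miR-141-3p: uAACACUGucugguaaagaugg

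The first 3 carry the seed AAUACUG and the last 2 the seed AACACUG. Within the seed, Mir429 and Mir200a differ by U4C, counted from 1 at the 5′ end of the 3p strand of Mir429. Of 1679 mature mouse miRNAs in the RefSeq table, 3 had the seed AAUACUG and 2 had AACACUG, and these were the members themselves. Over the first 22 bases, 15 positions were the same in all 5 strands. The closest pairs lie in different clusters. Mir200b and Mir200c differ at 2 bases, U11G and A22G, and Mir200a and Mir141 at 2 bases, C17A and U22G, while Mir429 differs from Mir200b at 4 bases. Each 3p sequence stood at 1 locus of that table, so a full-length read of a member matches a single annotated mature miRNA. Other places in the genome were not searched.

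The hairpins show where these strands sit in the annotated precursors, which are the units that were counted. The 3p strand is in capitals.
Mir429: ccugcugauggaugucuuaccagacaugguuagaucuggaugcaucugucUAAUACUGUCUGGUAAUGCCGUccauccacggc
Mir200b: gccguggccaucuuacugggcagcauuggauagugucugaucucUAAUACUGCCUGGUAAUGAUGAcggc
Mir200c: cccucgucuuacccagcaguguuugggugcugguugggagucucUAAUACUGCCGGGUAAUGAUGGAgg
Mir200a: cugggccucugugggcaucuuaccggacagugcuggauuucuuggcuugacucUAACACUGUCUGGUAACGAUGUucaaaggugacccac
Mir141: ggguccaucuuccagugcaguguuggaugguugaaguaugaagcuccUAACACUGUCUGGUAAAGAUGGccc

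In every hairpin the 3p strand lies on the second arm. A count covers the whole precursor, so reads of the 5p and 3p strands cannot be told apart in these tables.

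The clusters lie on different chromosomes (GRCm38, annotation release M21). On the minus strand of chromosome 4, Mir200b (ENSMUSG00000065549, 156055681 to 156055750), Mir200a (ENSMUSG00000065400, 156054896 to 156054985) and Mir429 (ENSMUSG00000065427, 156053905 to 156053987) follow each other within 1846 bases. Mir200b and Mir200a lie in an intron of the noncoding transcript Gm13648 and Mir429 in an exon of it. All 3 also lie in an intron of Ttll10, a tubulin ligase-like gene, on the same strand. On the minus strand of chromosome 6, Mir200c (ENSMUSG00000065462, 124718322 to 124718390) and Mir141 (ENSMUSG00000065474, 124717914 to 124717985) lie 336 bases apart in an intron of the noncoding transcript Gm15884. Mir141 also overlaps, in part, an exon of Gm29008, an unconfirmed gene model on the same strand.

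Genes of a cluster are often cut from 1 long transcript. Gm13648 starts 4052 bases upstream of the Mir200b hairpin, and the 300 bases around its start are shown because that transcript spans all 3 members of the chromosome 4 cluster. The window is chr4:156059753-156060052, minus strand, GRCm38.p6 (RefSeq), and capitals mark the letters CACCTG, the reverse complement of CAGGTG, an E-box form known to be bound by Zeb proteins.
Gm13648 start: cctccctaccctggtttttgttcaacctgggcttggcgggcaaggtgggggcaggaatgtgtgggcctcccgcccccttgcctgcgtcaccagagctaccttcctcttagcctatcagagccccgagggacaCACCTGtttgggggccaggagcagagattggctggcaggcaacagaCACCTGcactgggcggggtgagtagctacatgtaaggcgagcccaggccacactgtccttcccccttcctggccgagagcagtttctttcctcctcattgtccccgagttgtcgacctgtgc

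The letters were searched as CAGGTG and CACCTG, which covers both strands, and they occurred 2 times, at -118 and -72 from the start. Of 32817 such windows in the RefSeq table, 20.2% held at least 1 match and 2.88% held at least 2. A match describes the sequence only, and binding was not measured here. The start of Ttll10, which also spans the chromosome 4 members, was not examined on its own. No start was examined for the chromosome 6 cluster.

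Depth set the precision of the levels. Reads assigned to the sense strand of miRNA genes summed to 5529166 in replicate 1 and 3169882 in replicate 2, and levels are given as CPM, counts per 1000000 of that sum. Mir122, the hepatocyte miRNA, took 18.2% and 16.9% of the sense counts. Intervals are exact Clopper-Pearson 95% intervals and cover counting error only, because amplified reads without molecular identifiers are not independent molecules. The floor set by a count of 0 was 3 counts, which is 0.543 CPM for replicate 1 and 0.946 CPM for the shallower library, far below every member.

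All 5 members were detected, meaning at least 10 sense counts in both libraries, a rule met by 17.8% of all 1973 genes. Together they held 22405 counts in replicate 1 and 10354 in replicate 2. That was 0.405% of sense counts in replicate 1 (interval 0.400 to 0.411) and 0.327% in replicate 2 (0.320 to 0.333), with a mean of 0.366% ± 0.0556 (SD, n = 2). The chromosome 4 cluster supplied 0.320% ± 0.0505 and the chromosome 6 cluster 0.0459% ± 0.00502. In bulk tissue a level cannot separate few cells with much of a miRNA from many cells with little.

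Mir429, of the AAUACUG seed group, was the highest member. It had 14457 counts in replicate 1, or 2615 CPM (interval 2572 to 2658), and 6567 in replicate 2, or 2072 CPM (2022 to 2122). It ranked 59 and 64 among all miRNA genes. The level was higher in replicate 1, with intervals that do not overlap.

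Mir200b, which shares that seed and the chromosome 4 cluster, followed. Replicate 1 held 4283 counts of it, or 775 CPM (752 to 798). Replicate 2 held 2016, or 636 CPM (609 to 664). It ranked 99 and 109. Mir200c is the chromosome 6 member with the same seed. It had 2396 counts, or 433 CPM (416 to 451), and 1192 counts, or 376 CPM (355 to 398), at ranks 123 and 127. Both genes were again higher in replicate 1, beyond counting error.

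The members with the AACACUG seed were the lowest of the family. Mir200a, between Mir200b and Mir429 on chromosome 4, had 932 counts in replicate 1, which is 169 CPM (158 to 180), and 429 in replicate 2, which is 135 CPM (123 to 149). Mir141, the neighbour of Mir200c, had 337 counts, or 60.9 CPM (54.6 to 67.8), and 150 counts, or 47.3 CPM (40.1 to 55.5). The intervals of Mir200a do not overlap between libraries, while those of Mir141 do.

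**Figure D1:**
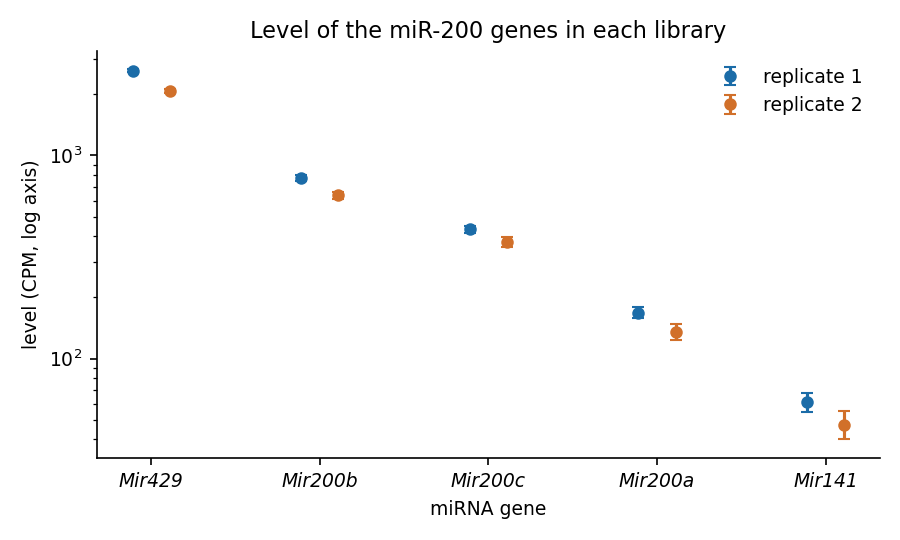
Level of each miR-200 gene in CPM on a log axis, 1 point per library, with exact 95% intervals of counting error. Mir429 is highest and Mir141 lowest in both libraries, and every replicate 2 point lies below its replicate 1 point.

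The order of the members, Mir429, Mir200b, Mir200c, Mir200a and Mir141, was the same in both libraries. For each pair of neighbours in that order, the lower library of the higher gene lay above the higher library of the lower gene. Mir429 was 3.32 ± 0.0834 times as high as Mir200b, Mir200b 1.74 ± 0.0681 times as high as Mir200c, Mir200c 2.67 ± 0.147 times as high as Mir200a, and Mir200a 2.81 ± 0.0668 times as high as Mir141 (ratios of CPM, SD, n = 2). A small RNA read covers a whole mature strand, so these levels count reads and are not per length. Between different miRNAs they compare reads, not molecules in the cell. Divided by hairpin length, the ratios were 2.80, 1.71, 3.49 and 2.25, which leaves the order as it was.

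Levels within a cluster were unequal although its genes lie close together. On chromosome 4, the middle gene Mir200a stood at 0.218 times Mir200b in replicate 1 and 0.213 times in replicate 2. Mir429, the last gene, stood at 3.38 and 3.26 times Mir200b. On chromosome 6, Mir141 stood at 0.141 and 0.126 times Mir200c. In both clusters, then, the AACACUG gene was the lowest and the AAUACUG genes were higher.

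**Figure D2:**
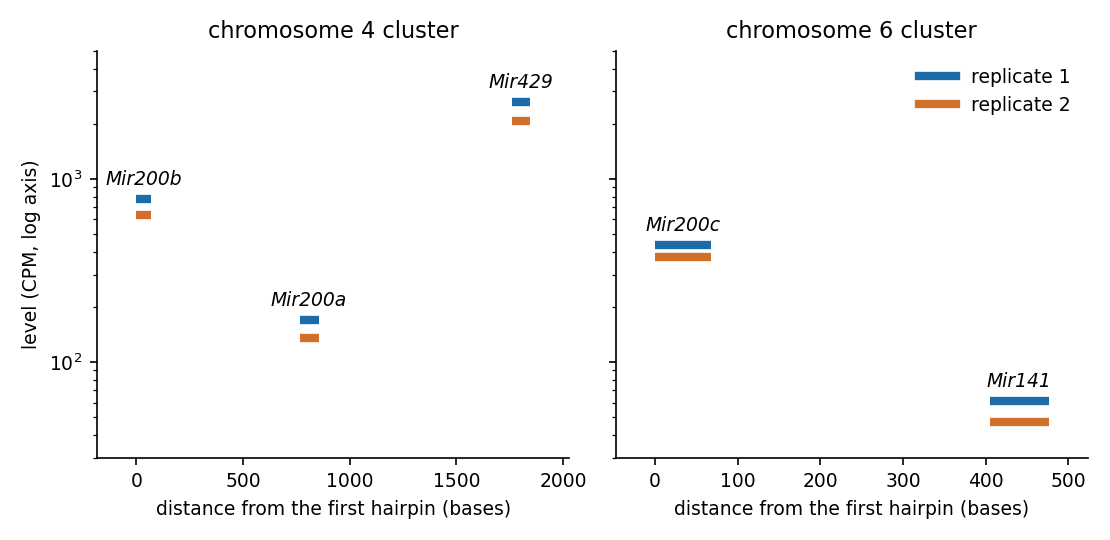
Level (CPM, log axis) of each hairpin against its distance in bases from the first hairpin of its cluster, in the direction of transcription, with 1 bar per library spanning the hairpin. In the chromosome 4 cluster the level is lowest at the middle gene Mir200a and highest at the last gene Mir429, and in the chromosome 6 cluster Mir141 lies below Mir200c.

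By seed, the AAUACUG genes made up 94.3% of the family's counts in replicate 1 (interval 94.0 to 94.6) and 94.4% in replicate 2 (93.9 to 94.8). The AACACUG genes made up the other 5.66% and 5.59%. By cluster, chromosome 4 made up 87.8% (87.4 to 88.2) and 87.0% (86.4 to 87.7). Mir429 alone made up 64.5% and 63.4%. These shares describe precursor counts and include any 5p strands, whose seeds differ from those of the 3p strands.

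The make-up was next compared between the libraries, which does not depend on how they are scaled. In 5 splits of the family, 0 differed by a two-sided Fisher's exact test after Benjamini-Hochberg adjustment over the 5, and 0 had an unadjusted p under 0.05. The split with the smallest p was chromosome 4 over chromosome 6, 7.20 in replicate 1 and 6.72 in replicate 2. Its odds ratio was 0.933 (95% interval 0.870 to 1.00, Fisher's exact p = 0.0540, adjusted p = 0.270). For the AAUACUG over the AACACUG genes the odds ratio was 1.01 (0.915 to 1.12, exact adjusted p = 0.817).

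Within the chromosome 4 cluster the odds ratio was 0.965 (0.908 to 1.03) for Mir429 over Mir200b and 0.978 (0.860 to 1.11) for Mir200a over Mir200b. Within the chromosome 6 cluster it was 0.895 (0.724 to 1.10) for Mir141 over Mir200c, the widest interval because Mir141 had the fewest counts. These intervals bound the change in proportion that counting error leaves possible between these 2 libraries. They do not show that the proportions were equal.

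**Figure D3:**
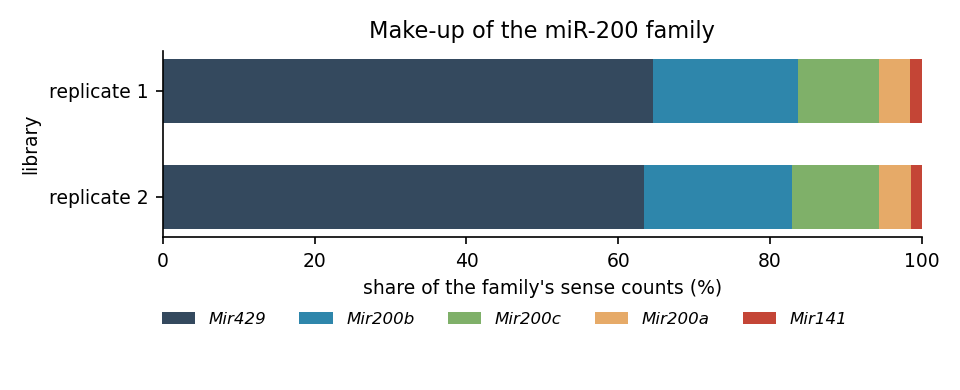
Share of the family's sense counts (%) held by each gene, 1 stacked bar per library. Mir429 holds 64.5% in replicate 1 and 63.4% in replicate 2, and the segments of the other genes are of similar width in both bars.

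The level of the whole family differed between the pools. Each of the 5 members was lower in replicate 2, with a median log2 ratio, replicate 2 over replicate 1, of -0.34, against -0.03 over all 456 genes tested. The family's share was 1.24 times as high in replicate 1 as in replicate 2, 1.25 times for the chromosome 4 cluster and 1.17 times for the chromosome 6 cluster. All 5 passed a two-sided exact binomial test with Benjamini-Hochberg adjustment over all genes tested, while 19.7% of those genes were called lower in replicate 2 and 38.6% were called in either direction. The members come from 2 loci and are not 5 independent observations. The test covers counting error and compares these 2 libraries, not conditions.

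For single members, ratios were taken on library sizes scaled by TMM, a trimmed mean over genes. Mir429 was 1.29-fold lower in replicate 2 (95% interval 1.25 to 1.32, exact binomial adjusted p = 5.71e-64). Mir200b was 1.24-fold lower (1.18 to 1.31, exact adjusted p = 7.93e-15) and Mir200a 1.27-fold lower (1.13 to 1.43, exact adjusted p = 0.000198). On chromosome 6, Mir200c was 1.17-fold lower (1.09 to 1.26, exact adjusted p = 3.08e-05) and Mir141 1.31-fold lower (1.08 to 1.60, exact adjusted p = 0.0176). The intervals of the 3 chromosome 4 genes overlap each other, and the interval of Mir141 holds the point values of the other 4. The interval of Mir200c holds the point value of Mir200b but not those of Mir429, Mir200a or Mir141.

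The position of these ratios depends on which genes they are set beside. Of the tested genes outside the family, from 19.7% (for Mir141) to 25.5% (for Mir200c) had a lower ratio than the member, and the SD of the log2 ratio over all 456 was 0.810. Ratios of thinly counted genes spread widely, as the plot of ratio against level shows. Over the 187 genes that averaged 100 CPM or more, the SD of the log2 ratio was 0.203, and 59 were called lower and 55 higher in replicate 2. Of the 183 of these outside the family, 5 had a lower log2 ratio than Mir429 at -0.36, 7 than Mir200b at -0.31, 7 than Mir200a at -0.34 and 14 than Mir200c at -0.23. Mir141 lies below that level. With 1 pool on each side, the spread between pools of the same kind could not be estimated separately from this difference.

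**Figure D4:**
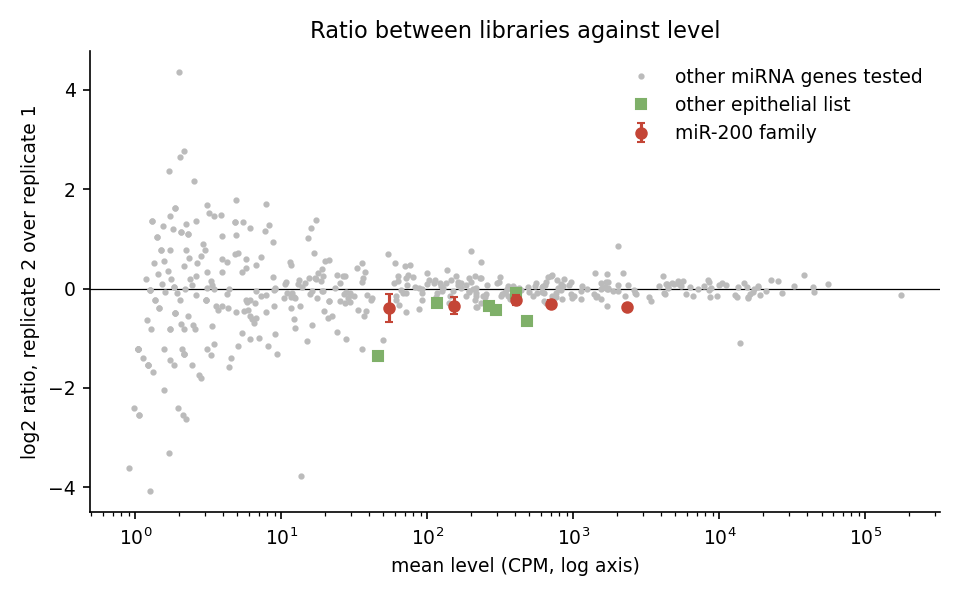
Log2 ratio, replicate 2 over replicate 1, against mean level (CPM, log axis) for the 456 genes tested, with the miR-200 family in red (bars are 95% intervals of counting error) and the other epithelial list as green squares. The 5 red points lie between -0.39 and -0.23, below the line at 0.

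Several other epithelial miRNAs were also lower in replicate 2. Of 6 genes of other epithelia, 5 were called lower and 0 higher, with a median log2 ratio of -0.40. Over all 456 genes tested, 19.7% were called lower, and of the 187 genes averaging 100 CPM or more, 59 were. The list was chosen with earlier results of these data known, so its likeness to the family is no independent test. Mir205, a miRNA of stratified epithelium such as skin, was at 65.7 CPM in the first library and 26.2 CPM in the second, a log2 ratio of -1.35. Mir203, a keratinocyte miRNA, stood at 578 and 376 CPM, a ratio of -0.65. The cluster genes Mir182, Mir183 and Mir96, known from sensory epithelia, had ratios of -0.44, -0.35 and -0.29. They share a cluster, so their calls are not independent observations. Mir31 had a ratio of -0.09 and was not called. Summed, these 6 genes took 0.182% of replicate 1 and 0.139% of replicate 2, and none of its members was at 0.

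Markers of gut, pancreas and ciliated epithelium gave mixed values. Mir375, known from pancreatic islets and gut endocrine cells, stood at 1891 and 1515 CPM, a log2 ratio of -0.35 that lies within the range of the family. Of 7 gut and pancreas genes, Mir375 and Mir215 were called lower and 0 higher, while the detected genes Mir7-1, Mir7-2 and Mir217 had ratios of -0.02, -0.08 and -0.01. Among all 456 genes tested, 19.7% were called lower and 38.6% in either direction. The call of Mir215 (exact binomial adjusted p = 0.0450) was lost with total sense counts as the scaling (0.0574) and with no count minimum (0.0665). The median of that list was -0.08, its sum was 0.216% and 0.177%, and none was at 0. Of 3 ciliated epithelium genes tested, 1, Mir449a, was called higher in replicate 2, with a ratio of 0.26. That list summed to 0.0204% and 0.0245%. Its other members Mir449b and Mir449c had at most 3 counts in either library, with Mir449b at 0 in replicate 1 and Mir449c at 0 in replicate 2.

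Hepatocyte markers were lower in replicate 2 as well. All 7 measured genes were called lower, with a median of -0.16 and a range from -3.77 to -0.11, and a sum of 19.6% and 18.1%. The share called lower was 19.7% over all 456 genes tested, and 59 of the 187 genes averaging 100 CPM or more. For genes with many counts the test calls even small shifts. Mir122 had a ratio of -0.14. The least abundant genes of the list lay further down than any miR-200 gene, Mir802 at -3.77 (25.3 and 1.89 CPM) and Mir194-1 at -0.73 (20.1 and 12.3 CPM). None was at 0.

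The erythroid, mesenchymal and leukocyte lists held genes on both sides of 0. Their calls stand beside 19.7% called lower and 38.6% called in either direction over all 456 genes tested. In the erythroid list Mir451a, a red cell miRNA and the most abundant of the list, stood at 18658 and 8843 CPM, a log2 ratio of -1.10, while the other 2 genes were called higher in replicate 2. The median of that list was 0.17 although its sum was 2.71% in replicate 1 and 1.86% in replicate 2. In the mesenchymal list 2 genes were called lower and 2 higher of 7 tested. Its ratios ran from -0.38 for Mir145a, a smooth muscle miRNA, to 0.36, with a median of -0.05, and its most abundant gene Mir143 was at -0.18. That list summed to 2.14% and 2.06%. In the leukocyte list 3 of 5 genes were called lower and 0 higher, and 2 were called lower with total sense counts as the scaling. The median of that list was -0.12, which is the ratio of its leading gene Mir223, and its sum was 2.11% and 1.97%. The 1 endothelial gene measured, Mir126a, had a ratio of -0.07. None of the measured genes of these lists was at 0. The part of any other tissue, or of the make-up of the pools, in the family's difference was not tested.

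**Figure D5:**
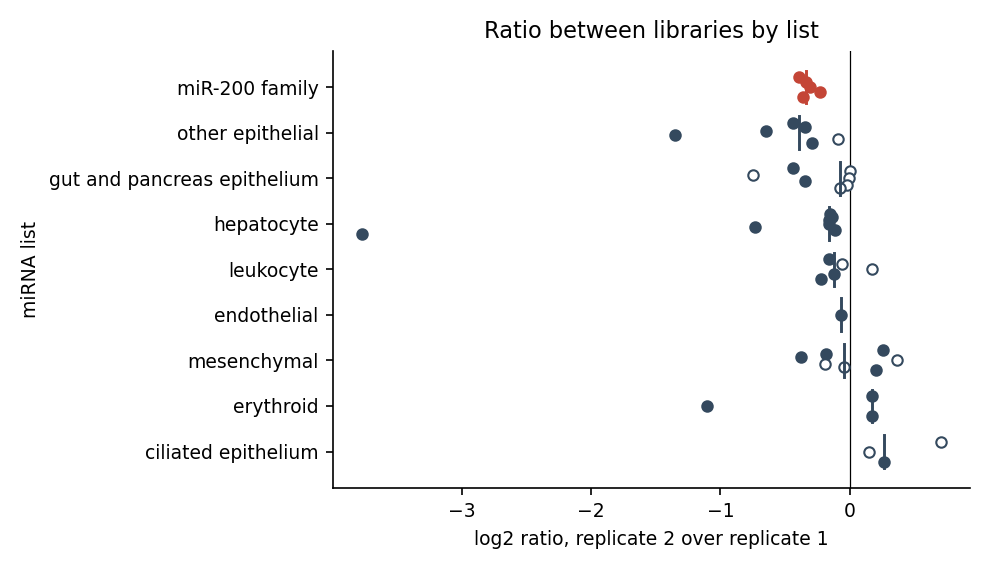
Log2 ratio, replicate 2 over replicate 1, of each tested gene by miRNA list. Filled points passed the exact binomial test, open points did not, and vertical bars are list medians, which are -0.34 for the miR-200 family, -0.40 for other epithelial genes and -0.16 for hepatocyte genes.

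The genes nearest to the members in level across both libraries, by Euclidean distance on log2(CPM + 1), were on none of the marker lists used here. Mir433 was nearest to Mir429, with 2350 CPM against 2159 CPM in replicates 1 and 2. Mir485 was nearest to Mir200b (740 and 683 CPM), Mir671 to Mir200c (407 and 375 CPM), Mir874 to Mir200a (155 and 128 CPM) and Mir338 to Mir141 (65.8 and 56.8 CPM). With 2 libraries, likeness means a similar level and no more. The log2 ratios were -0.15 for Mir433 against -0.36 for Mir429, and -0.14 for Mir485 against -0.31 for Mir200b. They were -0.14 for Mir671 against -0.23 for Mir200c, and -0.30 for Mir874 against -0.34 for Mir200a. For Mir338 the ratio was -0.24 against -0.39 for Mir141. Each nearest gene thus had a smaller drop than its member. Both libraries entered the choice of these genes, so their ratios are no independent test.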

How the data were processed

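The deposited tables hold raw whole-number read counts per miRNA gene, 1 table per library, on mm10 with annotation release M4 per the text deposited beside them. The aligner and counting program were not given in the sources used here. RNA under 30 nucleotides was selected, per the labels. Reads mapping to several places (29.3% and 31.1% of reads), unmapped reads (23.9% and 21.4%) and reads outside genes (5.40% and 6.23%) entered no level or test.

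Names and positions came from release M21 of the same assembly (1894 of 1973 identifiers matched by their stable part). The records of Mir200b and Mir200c carry another version number than in the tables. Sense counts were used throughout. TMM factors came from edgeR 4.0.16 and alternative size factors from DESeq2 1.42.0, in R 4.3.3; exact tests came from scipy 1.17.1. Genes with at least 10 summed sense counts were tested at a threshold of 0.05. The labels give biological replicates from separate pools. Adapter ligation can favour some sequences, so levels of different miRNAs compare reads, not molecules in the cell.

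The members, lists and tests were chosen with earlier results of these data known. Named were the members, detected genes of the epithelial and gut lists, the highest gene of other lists, and each member's nearest gene in level. Mir449b, Mir449c, Mir194-1, Mir802 and Mir145a, also named, were chosen after their values were seen. The binomial step was tested on simulated data drawn with counting error only, so that check says nothing about spread between pools. Mir885, Mir142 and Mir126b, also listed, were not among the genes counted.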

Additional observations from a re-analysis of the deposited data

How the results depend on the processing

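All 5 members stayed called lower in replicate 2 with DESeq2 size factors, total sense counts, unstranded counts, no count minimum and a minimum of 50 counts. Over those 25 ratios the log2 value ran from -0.40 to -0.20 and the highest adjusted p, by the exact binomial test, was 0.0278. The count minimum changes the adjusted p but not a member's ratio, so those settings repeat the main ratios. The family's mean share was 0.444% with Mir122 left out of the total and 0.138% of all reads, since the denominators differ by construction. Without replicate 1 it was 0.327% and without replicate 2 it was 0.405%. By total sense counts 80 genes were lower and 97 higher in replicate 2, against 90 and 86 with TMM. None of the 5 splits of the family passed with unstranded counts either. That outcome was nearly fixed, because the members had 0 opposite-strand counts apart from 3 of Mir200a in replicate 1. Division by hairpin length was added after the data were seen. Mir141, with 337 and 150 counts, sets the widest interval. No paired analysis was possible because the labels give a single group.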
